A study of Mus musculus with 8 samples.

Results

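Potassium channels open a pore that lets potassium leave or enter the cell, and in the brain they set the resting potential, shape the action potential and end bursts of firing. The mouse genes whose symbols begin with Kcn encode the pore-forming subunits of the voltage-gated, calcium-activated and sodium-activated, inwardly rectifying and tandem-pore channels, together with auxiliary subunits that change their gating or their delivery to the membrane. The hippocampus is known for A-type channels in dendrites, for the M-current that holds back repetitive firing and for the astrocyte inward rectifier that clears potassium released by neurons. All protein-coding genes with a symbol beginning with Kcn were taken, 94 of the 55401 genes in the deposited table. The symbol alone decided which genes belong, though the group was chosen with earlier results of these data known.

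The study sequenced RNA that came down with an antibody to CaMKIIβ, a subunit of the synaptic kinase CaMKII that calcium switches on through calmodulin, in RNA immunoprecipitation (RIP) from C57BL/6 mouse tissue labelled hippocampus. Its groups were 3 CaMKIIβ RIP libraries, 3 libraries from a mock precipitation with non-specific immunoglobulin (IgG RIP), and 2 Input libraries, made without precipitation. All were made from total RNA extracted with TRIzol and treated with DNase I, and the labels name no genotype other than the strain, no treatment and no age or number of animals. The CaMKIIβ RIP against IgG RIP comparison asks which transcripts the antibody enriched, and each RIP against Input asks how precipitated RNA differed from the starting RNA. No label ties the libraries of a group to separate animals, so p-values measure the spread between these libraries, which may be technical.

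The libraries held between 17273957 counts (CaMKIIβ RIP replicate 2) and 28138289 counts (IgG RIP replicate 3) in genes. CaMKIIβ RIP replicate 2 also stood apart from the other libraries, and its values are given separately where they matter. Markers did not follow the tissue label in a simple way. Spink8, a marker of hippocampal pyramidal cells, averaged 0.475 ± 0.215 CPM (counts per 1000000 counts of a scaled library) in CaMKIIβ RIP, 1.64 ± 0.241 in IgG RIP and 2.52 ± 0.202 in Input (SD, n = 3, 3 and 2). Gabra6, a receptor subunit of cerebellar granule cells, averaged 232 ± 42, 219 ± 11 and 418 ± 0.997 CPM in the same groups. The summed level of the cerebellar granule neuron list was 6371 to 7238 CPM in CaMKIIβ RIP, 6751 to 7064 in IgG RIP and 4354 to 4480.3 in Input, that of the Purkinje cell list 7281 to 8477, 7419.7 to 7846 and 4166 to 4195, and that of the hippocampal neuron list 1049 to 1338, 1291 to 1343 and 978 to 1000.4. Members of the cerebellar lists went both ways. In CaMKIIβ RIP 2 of 8 granule neuron genes rose and 2 fell, and in IgG RIP 4 rose and 3 fell, while of 6 Purkinje genes 1 rose and 2 fell in CaMKIIβ RIP and 3 rose and 2 fell in IgG RIP. Both sums were above Input through 1 gene each, Fat2 and Itpr1, the most abundant of their lists. Without Fat2 the granule neuron sum was 2392 to 2548 CPM in CaMKIIβ RIP, 2472 to 2510.2 in IgG RIP and 2848 to 2873 in Input, and without Itpr1 the Purkinje sum was 1231 to 1413 CPM in CaMKIIβ RIP, 1307 to 1456 in IgG RIP and 1613 to 1696 in Input, so that both were lower in the precipitates. Of 10 hippocampal neuron genes, 1 rose and 0 fell in CaMKIIβ RIP, and 4 rose and 1 fell in IgG RIP. Most of that sum was Zbtb20. Without Zbtb20 it was 283 to 307 CPM in CaMKIIβ RIP, 293 to 297 in IgG RIP and 261 to 273 in Input. Spink8 was near the low end of this list, where Prox1 averaged 125 ± 10.3 CPM in Input and Iyd 1.15 ± 0.314. The part of these cell types in the results below was not tested.

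Levels are CPM scaled by TMM factors over all 8 libraries. To rank genes against each other in Input, levels were divided by the exon length that the table gives, in CPM per kilobase. Potassium channel RNA in Input was dominated by a few genes: 29 of the 94 reached 10 CPM per kilobase, 65 reached 1, and the 10 highest by that measure held 59.3% of the CPM summed over the family. The median was 3.72 CPM per kilobase. Kcn genes together held 7704, 7279 and 7329.7 CPM in CaMKIIβ RIP, 7608, 7732 and 7857 CPM in IgG RIP, and 6579 and 6422 CPM in Input. Every RIP library thus lay above both Input libraries on this scale. As a share of raw counts the groups were closer, and CaMKIIβ RIP overlapped Input, at 0.711% to 0.736% in CaMKIIβ RIP, 0.742% to 0.756% in IgG RIP and 0.700% to 0.716% in Input.

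Among the highest levels in Input were those of Kcna1 and Kcna2, the low-threshold channels of axons, at 60 ± 3.57 and 58.8 ± 0.353 CPM per kilobase (SD, n = 2, as for the other Input levels). Kcnc1, a fast channel of the Kv3 family that lets neurons fire at high rates, stood at 56.1 ± 0.634. Kcnd2, the pore of the dendritic A-type current, reached 54.6 ± 2.31, and Kcnj10, the inward rectifier of astrocytes, 52.3 ± 3.09. Among these 5 genes, from 60 down to 52.3, the libraries of neighbours overlapped except between Kcna2 and Kcnc1, which differed by little. After a gap came Kcnk1, a weakly rectifying tandem-pore channel, at 37.3 ± 0.541, Kcnab2, the β subunit that binds Kv1 channels, at 34 ± 2.24, and Kcnj3, a G protein-gated rectifier, at 33.2 ± 1.83. Kcnt1, the sodium-activated Slack channel, stood at 30.1 ± 0.110 and Kcnma1, the large-conductance calcium-activated channel, at 26.8 ± 0.603.

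**Figure D1:**
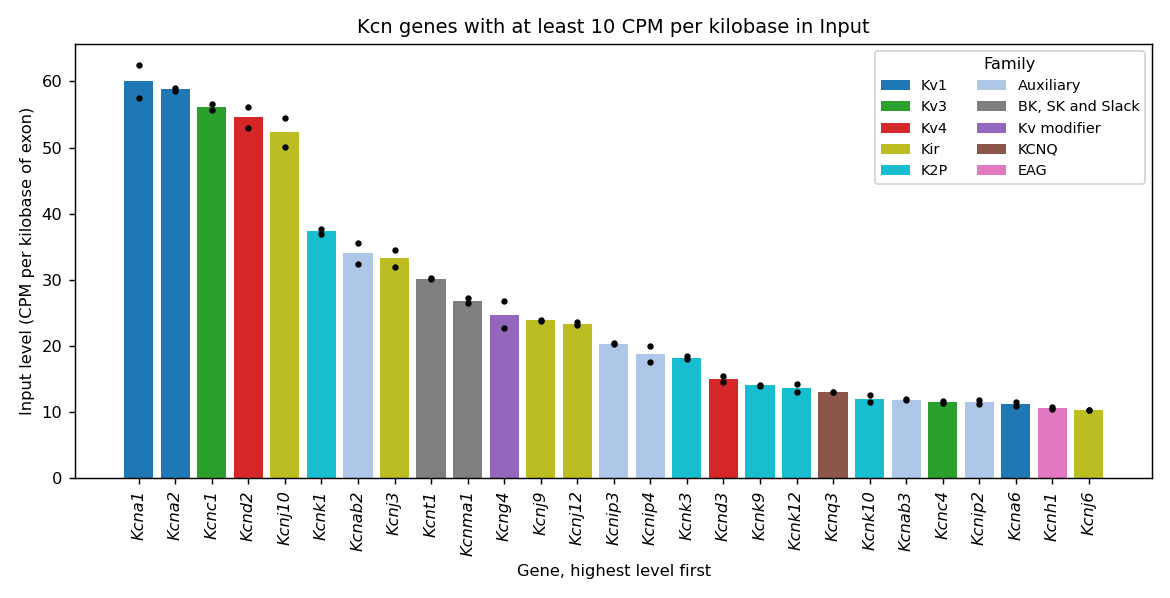
Input level of 27 of the 29 Kcn genes with at least 10 CPM per kilobase of exon, highest first. Bars are the mean of the 2 Input libraries, dots the libraries and colours the channel families; the first 5 genes drawn lie between 52.3 and 60.

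At the other end, 29 genes lay under 1 CPM per kilobase in Input. Kcne1, the partner of the cardiac channel Kcnq1, and Kcnj1, the rectifier of the kidney tubule, had 0 counts in all 8 libraries. Kcna7 and Kcnk16 had 1 count each over all libraries, Kcna10 had 4, Kcne3 had 7 and Kcnj15 had 9. These 7 genes passed the count filter in no comparison. Of the others, 83 were tested in all 3 comparisons, and Kcne4, Kcnk7, Kcnk18 and Kcnn4 in only 1 or 2 of them. A gene at the edge of that filter may pass through the group where it is higher, so counts below are given over the genes tested and stand for no more than those.

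The comparison of the CaMKIIβ antibody with IgG showed no Kcn gene past the threshold. With edgeR's quasi-likelihood test and Benjamini-Hochberg adjustment over all genes, 0 of 83 tested Kcn genes were called in either direction, beside 0 of 20566 genes in all, a background of 0%. At an unadjusted p under 0.05, 3 Kcn genes passed, where 3.51% of all genes did. DESeq2 called 0 and had 4 at an unadjusted p under 0.05, and limma-voom called 0 and had 3. Adjusted p ran from 0.982 to 0.999. Without CaMKIIβ RIP replicate 2 the count of calls was again 0, with 5 at an unadjusted p under 0.05. The median log2 fold change of the tested Kcn genes was -0.04, beside -0.02 over all genes tested.

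The intervals show how far this goes. The 95% interval of the fold change lay inside a 2-fold change in either direction for 56 of the 83 genes and below a 2-fold excess for 62. The groups' libraries did not overlap for 6 genes that were higher with CaMKIIβ and 6 that were lower, where 4.57% and 7.33% of all genes did so. For channels of low level the data set no useful limit: Kcnq1 averaged 1.53 ± 1.30 CPM in CaMKIIβ RIP, 1.32 ± 0.587 in IgG RIP and 0.972 ± 0.205 in Input (SD, n = 3, 3 and 2), with an interval of the log2 fold change between the antibodies from -1.87 to 2.32.

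Kcnj10 had the smallest p, at 545, 390.0 and 421 CPM in CaMKIIβ RIP, 561, 604 and 569 CPM in IgG RIP, and 295 and 271 CPM in Input. Replicates 2 and 3 of CaMKIIβ RIP lay below all IgG RIP libraries and replicate 1 lay just below the lowest of them, and all 6 RIP libraries were above Input. The log2 fold change between the antibodies was -0.34 ± 0.12 (SE), with edgeR's unadjusted p 0.0185 and adjusted p 0.982. Kcnh2, an ERG channel that carries a slow repolarizing current, was at 81, 99.1 and 74.9 CPM in CaMKIIβ RIP, 65.9, 64.2 and 70.8 CPM in IgG RIP, and 42.4 and 38 CPM in Input. Its CaMKIIβ libraries were all above its IgG libraries, and the log2 fold change was 0.36 ± 0.13 (SE), with an adjusted p of 0.982 from edgeR. Kcnj6, a G protein-gated rectifier, had 85.1, 69.6 and 63 CPM in CaMKIIβ RIP, 93.7, 86.9 and 90.9 CPM in IgG RIP, and 78.3 and 78.2 CPM in Input. Its CaMKIIβ libraries were all below its IgG libraries, with a log2 fold change of -0.31 ± 0.13 (SE). Kcnk3, an acid-sensitive tandem-pore channel that carries a leak current, had 98.9, 105 and 115 CPM in CaMKIIβ RIP, 88.2, 89.2 and 96.1 CPM in IgG RIP, and 71.5 and 73.1 CPM in Input. Here the CaMKIIβ libraries were all above the IgG libraries, with a log2 fold change of 0.23 ± 0.11 (SE). Kcna3, a channel well known from lymphocytes and microglia, stood at 8.61, 22 and 5.64 CPM in CaMKIIβ RIP, 5.99, 7.0 and 6.29 CPM in IgG RIP, and 7.39 and 8.16 CPM in Input. Only replicate 2 of CaMKIIβ RIP was clearly high, and the log2 fold change of 0.92 ± 0.44 (SE) became 0.16 ± 0.26 without that library. None of these 5 passed with edgeR (adjusted p 0.982 for each with all libraries).

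**Figure D2:**
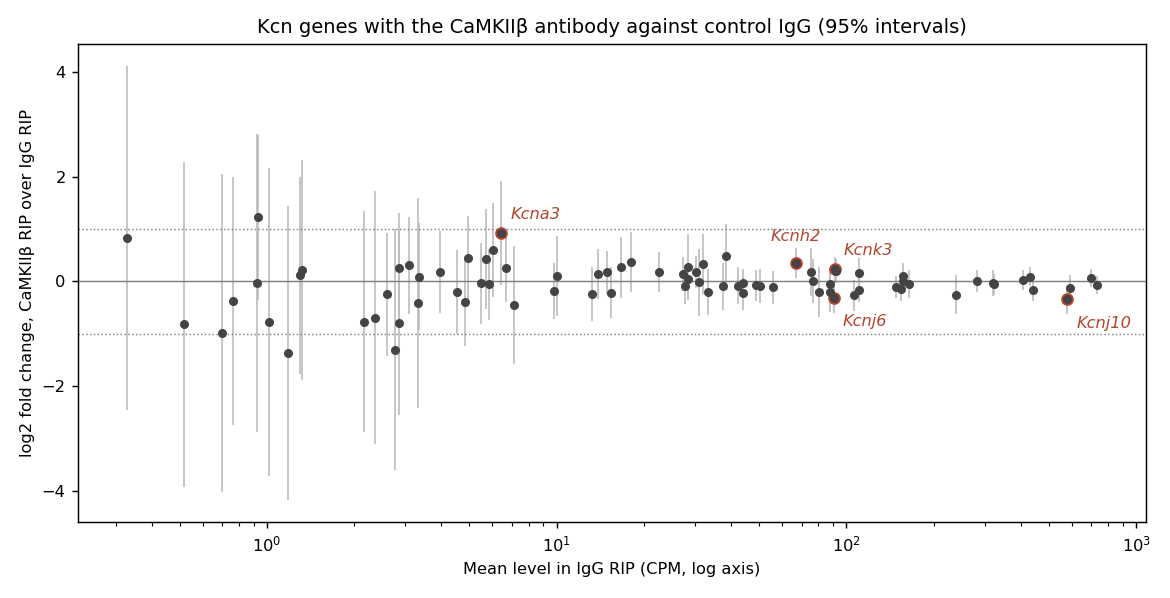
log2 fold change of CaMKIIβ RIP over IgG RIP (vertical axis) against the mean level in IgG RIP (horizontal log axis, CPM) for the 83 tested Kcn genes, with 95% intervals. Dotted lines mark 2-fold, red rings the 5 genes with the smallest p; genes of at least 100 CPM lie between -0.34 and 0.17, and the widest intervals belong to genes of a few CPM or less.

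Against Input, each precipitate held more of some channel RNAs and less of others. The 2 comparisons share the Input libraries, so their values are given side by side and no likeness between them is measured. In CaMKIIβ RIP, 8 of 85 tested Kcn genes were higher (9.41%) and 2 were lower (2.35%), where 5.06% and 3.4% of all genes tested were, and 7.64% and 4.61% of protein-coding genes. In IgG RIP, 29 of 86 were higher (33.7%) and 11 were lower (12.8%), where 20.1% and 18.7% of all genes were, and 28.6% and 20.7% of protein-coding genes. The share that rose was thus close to that of protein-coding genes in both comparisons, and the share that fell was smaller. Median log2 fold changes in CaMKIIβ RIP were 0.09 for Kcn genes, -0.12 for all genes and 0.005 for protein-coding genes. In IgG RIP these medians were 0.22, -0.02 and 0.08. In tissue extracts, fewer cells of a type and less RNA per cell cannot be told apart.

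These calls did not all rest on the same ground. In CaMKIIβ RIP all 10 were lost without its replicate 1 and without Input replicate 2. Without Input replicate 1, 3 higher and 0 lower calls were left, and without CaMKIIβ replicate 3 there were 6 and 1. Without CaMKIIβ replicate 2 there were 15 higher and 4 lower calls, which held the 10 and added, among others, Kcnc4, Kcnh1, Kcnip3, Kcnk12 and Kcnk13 as higher and Kcnt2 and Kcnv1 as lower. In IgG RIP, 18 of the 29 higher and 4 of the 11 lower calls were kept whichever library was left out. The lower count fell most without Input replicate 2, to 4. A single fit of all 8 libraries kept 11 and 3 of them. Those 14, all of which were also kept whichever library was left out, included Kcnab2, Kcnc1, Kcnc4, Kcng1, Kcng4, Kcnh2, Kcnip3, Kcnj10 and Kcnn3 on the higher side and Kcnh7, Kcnip4 and Kcnt2 on the lower.

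The zero point of these comparisons depends on scaling. With library size alone the median of all genes moved by -0.17 in CaMKIIβ RIP and by -0.23 in IgG RIP, and the calls became 4 higher and 6 lower in CaMKIIβ RIP and 15 higher and 22 lower in IgG RIP. All 8 and 28 of the 29 higher genes kept their sign, the exception being Kcna1 at -0.0084 in IgG RIP, and every lower gene kept its call. Relative to the median of all genes, the Kcn median stayed at 0.20 to 0.21 in CaMKIIβ RIP and at 0.25 in IgG RIP under all 4 scalings. The medians of protein-coding genes, given above, lay closer to those of Kcn genes and are not given for the other scalings.

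**Figure D3:**
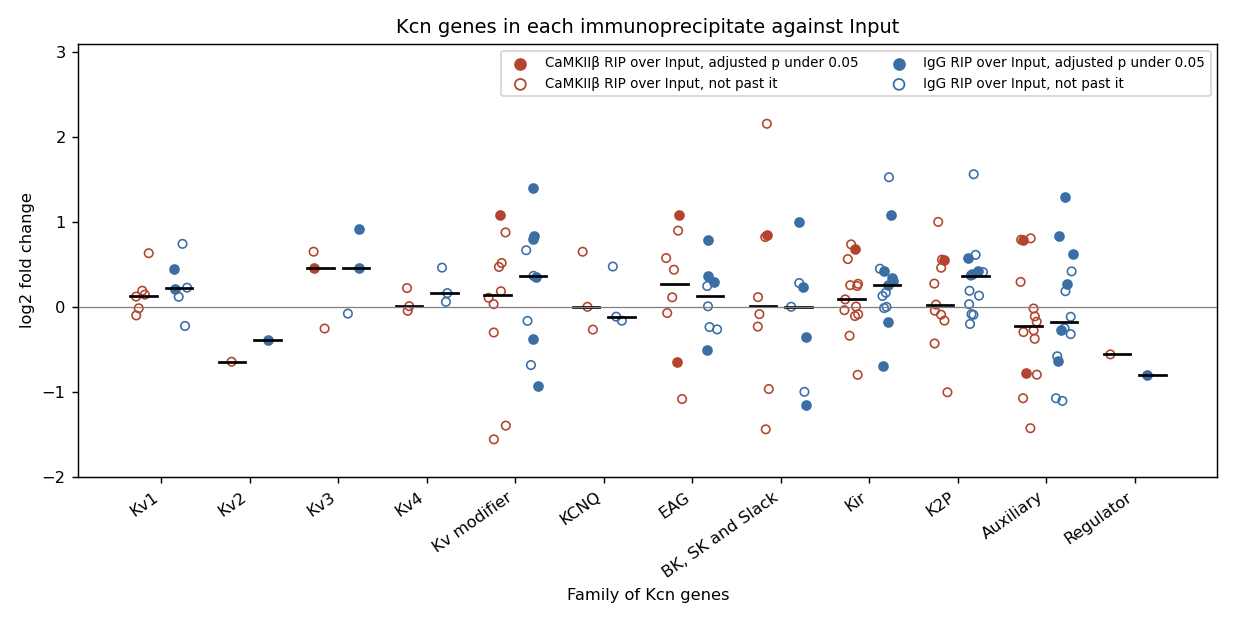
log2 fold change of CaMKIIβ RIP over Input (red, left) and IgG RIP over Input (blue, right) for tested Kcn genes, by family, with 4 tested genes not drawn. Filled points passed an adjusted p of 0.05 and bars are medians of the points drawn; Kcng4 is the highest filled point in IgG RIP (1.40) and Kcnt2 the lowest (-1.16).

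Kv1 channels open at low voltages in axons and at nerve terminals. Of 6 tested, 0 were called in CaMKIIβ RIP and 2 rose in IgG RIP, with 0 lower. The share that rose in IgG RIP, 33.3%, was close to the 33.7% of all tested Kcn genes and the 28.6% of protein-coding genes. Kcna2, the Kcn gene with the most CPM in Input, had 700.2, 677 and 699.6 CPM in CaMKIIβ RIP, 733, 762 and 706 CPM in IgG RIP, and 703 and 697 CPM in Input. The CaMKIIβ libraries lay around Input and the IgG libraries just above it, and its log2 fold changes were -0.01 ± 0.09 in CaMKIIβ RIP and 0.12 ± 0.06 in IgG RIP (SE here and below). Kcna1 had 322, 264 and 349 CPM in CaMKIIβ RIP, 312, 317 and 335 CPM in IgG RIP, and 299 and 275 CPM in Input. The IgG libraries were above Input by little, a log2 fold change of 0.22 ± 0.06 (adjusted p 0.0109, edgeR, lost without Input replicate 2), and the CaMKIIβ libraries spread across the Input range. Kcna6, a further axonal Kv1 channel, had 94.5, 57.8 and 75.4 CPM in CaMKIIβ RIP, 80, 98.5 and 84.5 CPM in IgG RIP, and 68.4 and 64.7 CPM in Input. It rose by 0.45 ± 0.09 on the log2 scale in IgG RIP, but 39.6% of its exon bases are shared with another counted gene and without strand the reads of the pair cannot be told apart. In all, 14 of the 94 genes share at least 5% of exon bases with another counted gene, among the named ones also Kcng2, Kcnip4, Kcnk1, Kcnk2, Kcnk3, Kcnma1 and Kcnn2.

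Kcnb2, a delayed rectifier of the Kv2 family, had 29.7, 21.3 and 35.6 CPM in CaMKIIβ RIP, 33.3, 36.2 and 30.6 CPM in IgG RIP, and 44.2 and 46.2 CPM in Input. It lay below Input in all 6 and fell in IgG RIP, with a log2 fold change of -0.38 ± 0.10 (adjusted p 0.00523, edgeR), but the call was lost without Input replicate 2. In CaMKIIβ RIP its log2 fold change was -0.64 ± 0.23, not past the threshold (adjusted p 0.141, edgeR).

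Modifier subunits of the Kcnf, Kcng, Kcns and Kcnv groups form no channel on their own and join Kv2 subunits to change their gating. The largest rise in IgG RIP among called Kcn genes was in this group. Of 10 tested, 1 rose and 0 fell in CaMKIIβ RIP, and 4 rose and 2 fell in IgG RIP. Kcng4 (ENSMUSG00000045246.11, chromosome 8, 119623854 to 119635680 on the minus strand, build GRCm38) had 261, 162 and 175 CPM in CaMKIIβ RIP, 229, 231 and 256 CPM in IgG RIP, and 102 and 86.2 CPM in Input. Every precipitated library was far above Input, by 1.09 ± 0.22 on the log2 scale in CaMKIIβ RIP (adjusted p 0.0285, edgeR, lost without replicates 1 or 3 or Input replicate 2) and by 1.40 ± 0.08 in IgG RIP (adjusted p 1.55e-09, edgeR). In IgG RIP this was a 2.64-fold difference. The CaMKIIβ libraries were spread widely, with replicate 1 just above the IgG libraries and the other pair below them.

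Kcng1 and Kcng2 also rose in IgG RIP, at 14, 13.7 and 18.4 CPM against 9.40 and 8.98 CPM in Input and at 9.86, 10.4 and 9.80 CPM against 5.74 and 5.93 CPM in Input. Their log2 fold changes there were 0.80 ± 0.16 and 0.83 ± 0.18, and 0.52 ± 0.26 and 0.88 ± 0.45 in CaMKIIβ RIP, where neither passed. Kcnf1 rose by 0.36 ± 0.13 in IgG RIP, a call lost without IgG replicates 2 or 3 or Input replicate 1. Kcnv1, a silent subunit, had 4.76, 2.96 and 3.13 CPM in CaMKIIβ RIP, 5.49, 3.62 and 5.31 CPM in IgG RIP, and 9.04 and 10.1 CPM in Input. It was below Input in all 6 libraries, fell in IgG RIP with a log2 fold change of -0.94 ± 0.21 (adjusted p 0.00177, edgeR), and in CaMKIIβ RIP had a log2 fold change of -1.40 ± 0.37 (adjusted p 0.0604). Kcns2 fell by less in IgG RIP, at a log2 fold change of -0.38 ± 0.14, and that call was lost in 4 of the 5 refits that leave out a library.

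Kv3 channels close fast and let interneurons, auditory neurons and cerebellar neurons fire at high rates. Kcnc1 had 741, 728 and 711 CPM in CaMKIIβ RIP, 690.2, 675 and 736 CPM in IgG RIP, and 535 and 526 CPM in Input. The precipitated libraries did not overlap Input, and Kcnc1 rose by 0.46 ± 0.09 in CaMKIIβ RIP (adjusted p 0.0286) and 0.46 ± 0.06 in IgG RIP (adjusted p 1.17e-05) on the log2 scale, from edgeR. Kcnc4, which makes an A-type current, had 83.1, 43.3 and 81.8 CPM in CaMKIIβ RIP, 77.6, 79.5 and 84 CPM in IgG RIP, and 44.9 and 43.7 CPM in Input. It rose by 0.92 ± 0.08 in IgG RIP, whereas replicate 2 of CaMKIIβ RIP sat at the Input level and the other pair at the IgG level. The CaMKIIβ difference of 0.65 ± 0.28 did not pass (adjusted p 0.222, edgeR) but did without that library, at 0.96 ± 0.10. Kcnc2 averaged 51.2 ± 8.19 CPM in CaMKIIβ RIP, 55.8 ± 2.36 in IgG RIP and 61.1 ± 1.96 in Input (SD, n = 3, 3 and 2), with no call. Among members of the cerebellar lists summed above, Fat2 and Itpr1 were also higher in both precipitates than in Input and Gabra6 and Calb1 lower. Calb1, of the Purkinje cell list, averaged 299 ± 28.6 CPM in CaMKIIβ RIP, 285 ± 38.3 in IgG RIP and 480 ± 2.75 in Input. The part of these markers in the Kv3 values was not tested.

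Kv4 channels, which carry the A-type current of dendrites, had 0 of 3 genes called in either precipitate. Kcnd2 averaged 283 ± 24.9 CPM in CaMKIIβ RIP, 282 ± 8.41 in IgG RIP and 281 ± 11.9 in Input (SD, n = 3, 3 and 2). Its 95% interval ran from -0.26 to 0.28 in CaMKIIβ RIP and from -0.07 to 0.19 in IgG RIP on the log2 scale, far inside a 2-fold change. Kcnd3 averaged 138 ± 11.9 CPM in CaMKIIβ RIP, 154 ± 8.23 in IgG RIP and 143 ± 6.11 in Input, with a log2 fold change of 0.16 ± 0.07 in IgG RIP (adjusted p 0.0716, edgeR). Kcnd1 averaged 8.59 ± 0.830 CPM in CaMKIIβ RIP, 9.78 ± 1.49 in IgG RIP and 7.36 ± 0.401 in Input. All 3 of its IgG libraries lay above both Input libraries, and its log2 fold change there of 0.46 ± 0.18 did not pass (95% interval 0.08 to 0.85, adjusted p 0.0559, edgeR).

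KCNQ channels carry the M-current, which acetylcholine shuts. Kcnq3, which helps to carry it in neurons, had 149, 144 and 181 CPM in CaMKIIβ RIP, 169, 177 and 147 CPM in IgG RIP, and 191 and 189.8 CPM in Input. It lay below Input in every precipitated library, and its log2 fold changes of -0.27 ± 0.13 in CaMKIIβ RIP and -0.16 ± 0.08 in IgG RIP did not pass. Kcnq5 averaged 33.9 ± 1.51 CPM in CaMKIIβ RIP, 30.2 ± 2.39 in IgG RIP and 33.9 ± 1.05 in Input, with no call. Other KCNQ genes are not reported here, so these values do not stand for the group.

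The EAG, ERG and ELK genes of the Kcnh group held members on both sides. Of 8 tested, 1 rose and 1 fell in CaMKIIβ RIP, and 3 rose and 1 fell in IgG RIP. Kcnh2, whose levels are given above, rose by 1.08 ± 0.17 on the log2 scale in CaMKIIβ RIP (adjusted p 0.0134) and by 0.79 ± 0.09 in IgG RIP (adjusted p 2.22e-06), from edgeR. Kcnh7, a sister ERG gene, had 40, 48.4 and 49.8 CPM in CaMKIIβ RIP, 50.2, 48.5 and 47.5 CPM in IgG RIP, and 75.4 and 68.7 CPM in Input. All precipitated libraries were below both Input libraries, and it fell by 0.64 ± 0.15 in CaMKIIβ RIP (adjusted p 0.0465) and by 0.51 ± 0.08 in IgG RIP (adjusted p 9.66e-05), from edgeR. Kcnh1, the EAG channel, had 96.8, 111 and 107 CPM in CaMKIIβ RIP, 94.1, 91 and 90.4 CPM in IgG RIP, and 76.5 and 78.6 CPM in Input. It rose in IgG RIP by 0.30 ± 0.07, a call lost without Input replicate 1. Kcnh3, an ELK channel of the forebrain, rose in IgG RIP by 0.37 ± 0.11, a call lost without either Input library.

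Among channels opened by calcium or sodium, Kcnn3, a small-conductance channel that brakes firing after a burst, rose, and the Slick channel Kcnt2 fell. Of 8 tested in CaMKIIβ RIP, 1 rose and 0 fell, and of 7 tested in IgG RIP, 2 rose and 2 fell. Kcnn3 had 53.1, 44.8 and 43.3 CPM in CaMKIIβ RIP, 47.1, 57.6 and 46.7 CPM in IgG RIP, and 26.8 and 25.4 CPM in Input. It rose by 0.85 ± 0.17 in CaMKIIβ RIP (adjusted p 0.0263) and by 1.01 ± 0.11 in IgG RIP (adjusted p 1.71e-06) on the log2 scale, from edgeR. Its relative Kcnn2 had 31.2, 60.4 and 28.6 CPM in CaMKIIβ RIP, 33.7, 31.5 and 30.9 CPM in IgG RIP, and 38.7 and 46.2 CPM in Input. Replicate 2 of CaMKIIβ RIP was the highest of the 8 and the other 5 precipitated libraries lay below Input, and in IgG RIP Kcnn2 fell with a log2 fold change of -0.35 ± 0.10, a call lost without Input replicate 2. It shares 8.13% of its exon bases with other counted genes.

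Kcnt2 (ENSMUSG00000052726.16, chromosome 1, 140246158 to 140612067 on the plus strand, build GRCm38) had 7.45, 9.18 and 7.03 CPM in CaMKIIβ RIP, 6.53, 8.48 and 5.05 CPM in IgG RIP, and 14.8 and 16.1 CPM in Input. All precipitated libraries were well below both Input libraries. Its log2 fold change was -1.16 ± 0.19 in IgG RIP (adjusted p 0.000116), a 2.23-fold lower level, and -0.97 ± 0.26 in CaMKIIβ RIP (adjusted p 0.0628), from edgeR. Kcnt1, its close relative, had 327, 296 and 307 CPM in CaMKIIβ RIP, 316, 309 and 347 CPM in IgG RIP, and 286 and 287 CPM in Input and rose in IgG RIP by 0.23 ± 0.06, a call lost without either Input library. Kcnma1 had 388, 381 and 393 CPM in CaMKIIβ RIP, 439, 474 and 405 CPM in IgG RIP, and 462 and 448 CPM in Input, and no difference passed.

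Inward rectifiers pass potassium into the cell more easily than out and hold the resting potential. Of 13 tested, 1 rose and 0 fell in CaMKIIβ RIP, and 5 rose and 2 fell in IgG RIP. Kcnj10 (ENSMUSG00000044708.5, chromosome 1, 172341210 to 172374085 on the plus strand, build GRCm38), whose levels are given above, rose by 0.68 ± 0.16 on the log2 scale in CaMKIIβ RIP (adjusted p 0.0435) and by 1.09 ± 0.06 in IgG RIP (adjusted p 2.19e-09), from edgeR. The summed level of 7 astrocyte markers was 9233 to 11284 CPM in CaMKIIβ RIP, 10616 to 11929 in IgG RIP and 4979 to 5159 in Input. Without Slc1a2, the most abundant, it was 3454 to 4924, 4125 to 4356 and 2463 to 2616 CPM in the same order. Of the 7 markers, 4 rose in CaMKIIβ RIP and 6 in IgG RIP, and 0 fell in either. The part of these markers in the Kcnj10 result was not tested. Kcnj11, the pore of the ATP-sensitive channel, rose by 0.35 ± 0.09 in IgG RIP, a call lost without Input replicate 2. Kcnj4, a rectifier of forebrain neurons, rose there by 0.43 ± 0.13, a call lost without either Input library. Kcnj6 rose by 0.27 ± 0.07 and its call was lost in the same way.

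Kcnj2, a strong rectifier, had 3.68, 4.71 and 7.56 CPM in CaMKIIβ RIP, 5.94, 5.19 and 5.35 CPM in IgG RIP, and 8.73 and 9.79 CPM in Input. It was below Input in all precipitated libraries and fell in IgG RIP with a log2 fold change of -0.70 ± 0.19 (adjusted p 0.00609, edgeR, lost without Input replicate 2). Kcnj3 had 137, 129 and 145 CPM in CaMKIIβ RIP, 149, 151 and 145 CPM in IgG RIP, and 180.0 and 167 CPM in Input. Its IgG difference was small, at a log2 fold change of -0.17 ± 0.07, and its call was lost whichever library was left out. Kcnj9, a further G protein-gated subunit, averaged 123 ± 14.7 CPM in CaMKIIβ RIP, 111 ± 13.1 in IgG RIP and 102 ± 0.615 in Input (SD, n = 3, 3 and 2), with no call.

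Tandem-pore channels carry the leak current at rest. Of 11 tested in CaMKIIβ RIP 1 rose, of 13 tested in IgG RIP 3 rose, and 0 fell in either. Kcnk3, whose levels are given above, rose by 0.56 ± 0.13 on the log2 scale in CaMKIIβ RIP (adjusted p 0.0407) and by 0.39 ± 0.08 in IgG RIP (adjusted p 0.000539), from edgeR. Kcnk9, the closest relative of Kcnk3 and its partner in mixed channels, had 148, 193 and 159 CPM in CaMKIIβ RIP, 158, 161 and 151 CPM in IgG RIP, and 171 and 173 CPM in Input. Its libraries overlapped Input in CaMKIIβ RIP and lay just below it in IgG RIP, with log2 fold changes of -0.04 ± 0.14 and -0.08 ± 0.06, neither past the threshold. Kcnk12 had 43, 82.2 and 35.5 CPM in CaMKIIβ RIP, 33.7, 39.2 and 42.3 CPM in IgG RIP, and 27.9 and 25.6 CPM in Input, and rose in IgG RIP by 0.58 ± 0.11. Kcnk2, a channel opened by stretch and lipids, rose there by 0.42 ± 0.11, a call lost without either Input library, and Kcnk1 averaged 85 ± 29 CPM in CaMKIIβ RIP, 75.4 ± 5.45 in IgG RIP and 83.4 ± 1.21 in Input (SD, n = 3, 3 and 2), with no call.

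Auxiliary subunits bind the pores from inside or from the membrane. Of 14 tested, 1 rose and 1 fell in CaMKIIβ RIP, and 4 rose and 2 fell in IgG RIP. Kcnab2, which binds Kv1 channels and guides them to axons, had 421, 409 and 401 CPM in CaMKIIβ RIP, 397, 389.9 and 435 CPM in IgG RIP, and 248 and 226 CPM in Input. Every precipitated library was far above Input, and Kcnab2 rose by 0.79 ± 0.10 in CaMKIIβ RIP (adjusted p 0.00915) and by 0.83 ± 0.07 in IgG RIP (adjusted p 6.81e-08) on the log2 scale, from edgeR. Kcnab1, of the same group, had 88.8, 70.9 and 94.6 CPM in CaMKIIβ RIP, 85.7, 96.4 and 82 CPM in IgG RIP, and 104 and 116 CPM in Input. It lay below Input in every precipitated library and fell in IgG RIP with a log2 fold change of -0.27 ± 0.08, a call lost without IgG replicate 1 or Input replicate 2.

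The KChIP genes, whose calcium-binding products attach to Kv4 channels, also moved apart. Kcnip4 had 36.3, 34.4 and 47.9 CPM in CaMKIIβ RIP, 45.2, 41.5 and 40.1 CPM in IgG RIP, and 72.4 and 63.6 CPM in Input. All 6 precipitated libraries were below both Input libraries, and it fell by 0.78 ± 0.18 in CaMKIIβ RIP (adjusted p 0.0453) and by 0.63 ± 0.09 in IgG RIP (adjusted p 3.00e-05), from edgeR. Other counted genes share 7.36% of its exon bases. Kcnip3, which also acts in the nucleus as a repressor, had 104, 73.3 and 87.4 CPM in CaMKIIβ RIP, 105, 103 and 112 CPM in IgG RIP, and 72.2 and 71.6 CPM in Input. It rose in IgG RIP by 0.62 ± 0.07 (adjusted p 3.69e-06, edgeR), while replicate 2 of CaMKIIβ RIP was near Input, and the difference there, 0.30 ± 0.17, did not pass with it but did without it, at 0.47 ± 0.12.

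Kcnmb1, the smooth muscle β subunit of the large-conductance channel, had 5.05, 1.57 and 9.01 CPM in CaMKIIβ RIP, 7.29, 7.19 and 6.96 CPM in IgG RIP, and 2.58 and 3.44 CPM in Input. It rose in IgG RIP by 1.29 ± 0.23 (adjusted p 0.000196, edgeR), and its CaMKIIβ libraries ran from below Input to above IgG RIP. Smooth muscle and pericyte markers summed to 231 to 265 CPM in CaMKIIβ RIP and 239 to 267 in IgG RIP. In Input they summed to 169 to 169.9 CPM. Of the 6 genes, 4 rose and 1, Rgs5, fell in each precipitate. Without Rgs5, the most abundant, the sums were 188 to 203, 173 to 200 and 68.5 to 71.1 CPM in the same order. The part of these markers in the Kcnmb1 value was not tested. Kcnrg, a soluble protein that holds back the assembly of Kv channels, had 2.98, 3.49 and 4.86 CPM in CaMKIIβ RIP, 3.87, 2.64 and 2.73 CPM in IgG RIP, and 5.68 and 5.46 CPM in Input. It fell in IgG RIP with a log2 fold change of -0.80 ± 0.25 (adjusted p 0.0188, edgeR), a call lost without either Input library.

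**Figure D4:**
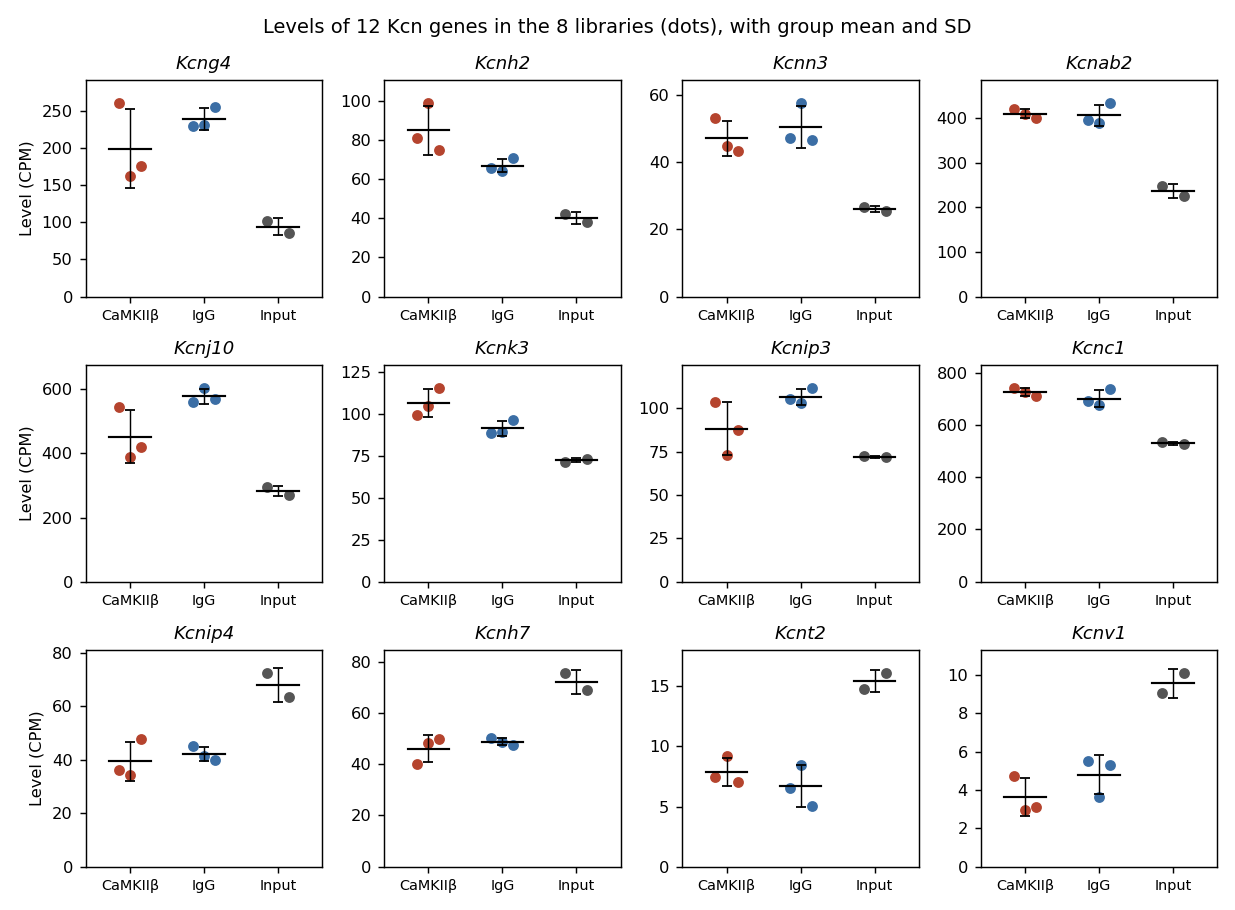
Level (CPM, axes from 0) of 12 Kcn genes in CaMKIIβ RIP (red), IgG RIP (blue) and Input (grey). Dots are libraries, bars the group mean and whiskers the SD; in the first 8 panels all RIP libraries lie above Input and in the last 4 all lie below it, and red and blue overlap in all but Kcnh2, Kcnj10 and Kcnk3.

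The upstream regions of the clearest movers are shown to place the genes, with 2 that rose and 2 that fell in IgG RIP. They are RefSeq sequences on GRCm38.p6, 250 bases before to 50 bases after the annotated start, written 5′ to 3′ along the gene's strand. The Kcnt2 start lies 440 bases before the counted gene. Capitals mark CG dinucleotides, the pairs that cluster in CpG islands.
Kcng4, chr8:119635631-119635930, minus strand: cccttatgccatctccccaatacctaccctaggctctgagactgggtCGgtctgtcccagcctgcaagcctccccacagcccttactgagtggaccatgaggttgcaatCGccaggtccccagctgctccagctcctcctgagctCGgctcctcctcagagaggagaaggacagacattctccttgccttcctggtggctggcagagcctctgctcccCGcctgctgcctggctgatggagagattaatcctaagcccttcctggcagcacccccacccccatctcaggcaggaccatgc
Kcnj10, chr1:172340960-172341259, plus strand: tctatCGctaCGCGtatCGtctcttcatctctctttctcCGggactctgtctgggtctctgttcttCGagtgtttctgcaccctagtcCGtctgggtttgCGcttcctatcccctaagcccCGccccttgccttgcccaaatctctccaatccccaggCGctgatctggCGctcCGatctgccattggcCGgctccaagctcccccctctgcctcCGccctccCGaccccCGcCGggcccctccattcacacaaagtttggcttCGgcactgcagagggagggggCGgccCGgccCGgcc
Kcnt2, chr1:140245468-140245767, plus strand: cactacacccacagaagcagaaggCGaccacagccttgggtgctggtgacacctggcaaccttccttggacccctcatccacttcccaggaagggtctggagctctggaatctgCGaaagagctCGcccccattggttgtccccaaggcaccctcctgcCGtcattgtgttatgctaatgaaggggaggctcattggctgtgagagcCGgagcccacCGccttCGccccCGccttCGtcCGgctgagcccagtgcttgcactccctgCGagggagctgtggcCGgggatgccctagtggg
Kcnh7, chr2:63184238-63184537, minus strand: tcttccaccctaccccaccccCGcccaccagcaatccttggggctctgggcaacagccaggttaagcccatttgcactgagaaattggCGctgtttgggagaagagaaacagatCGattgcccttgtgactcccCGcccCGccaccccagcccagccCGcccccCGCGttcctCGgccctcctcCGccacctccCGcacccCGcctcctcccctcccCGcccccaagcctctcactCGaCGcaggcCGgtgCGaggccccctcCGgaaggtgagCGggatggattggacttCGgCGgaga

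Among the 4, Kcng4 had 4 CG dinucleotides in its window, Kcnj10 21, Kcnt2 12 and Kcnh7 21, and GC content was 61.3%, 63.7%, 62.7% and 67.7% in that order. At least 1 CG is held by 96.5% of the 15366 protein-coding genes with such a window. A window was listed for 69 of the 94 Kcn genes, with a median of 10 CG and a GC content of 59.7%, beside 15 CG and 57.7% over all protein-coding genes. GC content of the window did not track the change in IgG RIP over Input across 62 tested genes (Pearson r = 0.08, Spearman ρ = 0.09, across genes that share libraries and are not independent).

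The genes that fell in IgG RIP had, as a group, longer genomic spans. The genomic span of the 29 genes that rose in IgG RIP had a median of 42208 bases, that of the 11 that fell 365910 bases, and that of the 46 with no call 22716.5 bases. Median exon length, which is what counts scale with, was 4845, 5586 and 3706 bases. Kcnip4 spans 1135406 bases and Kcnh7 490874, against 11827 for Kcng4 and 32876 for Kcnj10. Over all 86 genes the relation of log2 fold change to log10 span was weak (Pearson r = -0.12, Spearman ρ = -0.11), and spans overlapped widely, from 4789 to 363814 bases among risers and from 5370 to 1135406 among fallers.

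Other genes that work with these channels were counted for context, from lists chosen with earlier results known. Of 15 tested channel partners, 3 rose and 1 fell in CaMKIIβ RIP, and 9 rose and 1 fell in IgG RIP. Their median log2 fold changes were 0.26 and 0.45, beside -0.12 and -0.02 over all genes and 0.005 and 0.08 over protein-coding genes. Of protein-coding genes, 7.64% rose and 4.61% fell in CaMKIIβ RIP, and 28.6% rose and 20.7% fell in IgG RIP. Ank3, the scaffold that holds channels at the axon initial segment, averaged 1729 ± 275 CPM in CaMKIIβ RIP, 1970.3 ± 68.9 in IgG RIP and 1053 ± 50.5 in Input (SD, n = 3, 3 and 2) and rose in both. Cntnap1, of the junctions beside nodes of Ranvier, averaged 502 ± 42 CPM in CaMKIIβ RIP, 461 ± 34.7 in IgG RIP and 305 ± 4.81 in Input and rose in both. Dpp6 and Dpp10 are the membrane partners of Kv4 channels. Dpp6 rose in IgG RIP by 0.56 ± 0.06, whereas Dpp10 fell in both, with log2 fold changes of -0.73 ± 0.15 in CaMKIIβ RIP and -0.70 ± 0.09 in IgG RIP. The pores they join, Kcnd2 and Kcnd3, stayed uncalled as given above.

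Of 5 pacemaker channel genes, 0 were called in CaMKIIβ RIP and 3 rose and 1 fell in IgG RIP. Hcn2 rose there by 0.53 ± 0.07. Of 10 pumps and cotransporters, 4 rose and 0 fell in CaMKIIβ RIP and 6 rose and 3 fell in IgG RIP. The shares of protein-coding genes given beside the channel partners are the background for these lists too. Slc12a2, the importer of sodium, potassium and chloride, fell in IgG RIP, at a log2 fold change of -0.59 ± 0.07, and the chloride exporter Slc12a5 rose in both, by 0.70 ± 0.12 and 0.49 ± 0.07. No gene of the 3 lists was called between the antibodies.

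CaMKIIβ RIP replicate 2 held the highest level of the 8 libraries for 20 of 83 Kcn genes (24.1%) and the lowest for 27 (32.5%), close to its 22% and 35.4% over all genes tested. In the other 7 libraries the highest share was between 6.02% and 14.5% and the lowest share between 2.41% and 19.3%. It lay at least 1.5-fold above every other library for 6 genes, among them Kcna3, Kcnk12, Kcnn1, Kcnj4 and Kcnh3. Of the 83 genes tested in all 3 comparisons, it had 0 counts for 7: Kcnh8, Kcnj14, Kcnj5, Kcnk15, Kcnk6, Kcnmb2 and Kcnmb3. All of them had counts in every other library. These genes are of low level, and a count of 0 there allows up to 3 counts in that library, so no fold is given. In the other libraries Kcnmb3 had 3 to 22 counts and Kcnk6 had 28 to 91. CaMKIIβ RIP replicate 2 had counts in 19247 genes, beside 24865 to 31152 in the other libraries. Input replicate 1, with a similar total of 17776157 counts, had 30899. The cause of this was not tested.

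**Figure D5:**
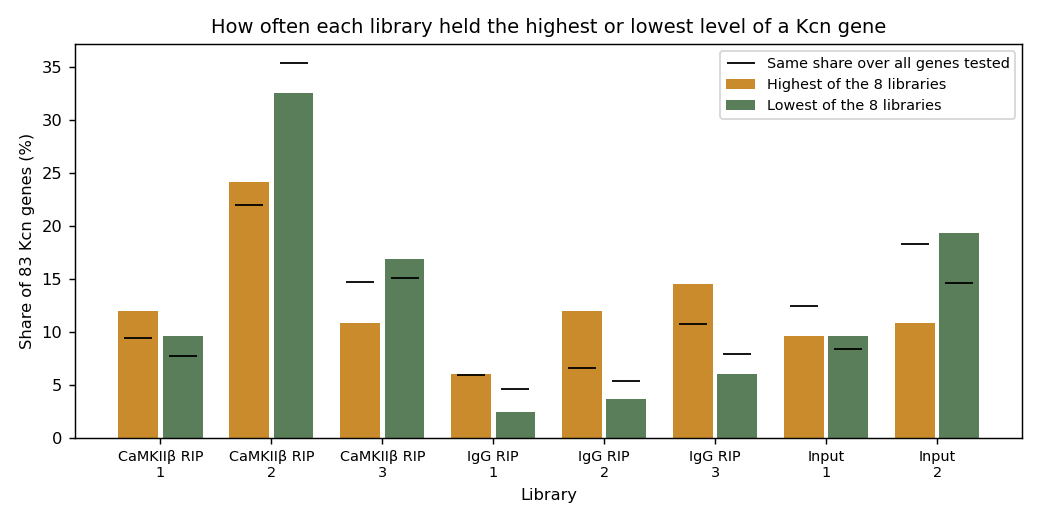
Share of the 83 Kcn genes (vertical axis, %) for which each library (horizontal axis) held the highest (ochre) or lowest (green) of the 8 levels. Black dashes give the same share over all genes tested; CaMKIIβ RIP replicate 2 stands out at 24.1% and 32.5%, as it does over all genes at 22% and 35.4%.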

How the data were processed

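RNA from 3 CaMKIIβ RIP, 3 IgG RIP and 2 Input libraries was sequenced. The authors deposited raw counts per gene; the submitters' processing notes name Trim Galore 0.6.4, cutadapt 2.10, STAR 2.7.3a, featureCounts 2.0.1 and build GRCm38.p6. The strand setting, the handling of reads with several positions and the release of the annotation are not given in the sources used here. Library totals are in the report and limit precision most for genes of a few counts. Columns were tied to groups by their names, and 0 columns were left without a sample.

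The table holds Ensembl identifiers, joined to RefSeq genes on GRCm38.p6 by mutual best overlap of at least 0.5 of the joint span (34134 of 55401 genes). All 94 protein-coding Kcn genes were joined, 2 of them (Kcna4, Kcnv1) as the only counted gene inside the RefSeq gene, and 83 with a shared span of at least 0.8; 4 noncoding genes were left out. The rule for a second partner was that it stayed under 0.8 of the best.

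For each comparison the libraries of its pair of groups were fitted in R 4.3.3 by edgeR 4.0.16 (robust quasi-likelihood F test, TMM, filterByExpr with a minimum count of 10 and total of 15). Calls are Benjamini-Hochberg adjusted p under 0.05 over all genes tested, and 95% intervals use the fit's degrees of freedom. Alternatives were scaling by RLE, by the upper quartile or by library size alone, 2 other filters, DESeq2 1.42.0, limma-voom (limma 3.58.1), 1 fit of all libraries, a replicate block, a 2-fold minimum, each library left out and removal of an exon length trend (values with no test). Sums of marker lists without their most abundant gene were added after seeing the data. Others, on shared span, shared exons and low level, were added after seeing the data. The test was checked on simulated counts. Python 3.11.15, pandas 2.3.3 and matplotlib 3.10.9 made tables and figures. Libraries of a group differed beyond counting noise, so none was a duplicate.

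Members, families and lists were chosen with earlier results of these data known. Named genes were, per family, up to 3 past the threshold in each direction against Input with the largest change (average log2 CPM 1 or more, libraries of the groups apart), the 3 highest in Input per kilobase, the 5 with the smallest p between antibodies, and all members of families with up to 5 tested. Printed promoters were taken from genes with at least 10 CPM in Input and a RefSeq start within 1000 bases of the counted 5′ end. Some genes that the naming rule takes, and some of the lists, are not reported here.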

Additional observations from a re-analysis of the deposited data

How the results depend on the processing

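Between the antibodies the count of called Kcn genes was 0 in each direction under every alternative run, including the refits that leave out a library and the replicate block. In CaMKIIβ RIP against Input (8 higher, 2 lower), the count of higher genes became 4 with library size alone, 15 with the replicate block and 2 with a 2-fold minimum, and ran from 0 to 15 in the refits that leave out 1 library. The count of lower genes became 0 with RLE, 1 with upper quartile scaling, 6 with library size alone, 1 when every library of a group needed 10 counts, 4 with DESeq2, 4 with limma-voom, 6 in 1 fit of all 8 libraries, 6 with the replicate block, 0 with a 2-fold minimum and 1 over genes that share under 5% of exon bases, and ran from 0 to 4 with 1 library left out. In IgG RIP against Input (29 higher, 11 lower), library size alone gave 15 higher and 22 lower, 1 fit of all 8 libraries 11 and 3, and a 2-fold minimum 4 and 1. With 1 library left out the counts ran from 20 to 31 and from 4 to 11, with 4 lower genes without Input replicate 2. The replicate block gave 30 and 11 there. Deviations of same-numbered libraries correlated at -0.048 to 0.062, so the numbers were not taken as pairs. With library size alone, several small positive log2 fold changes of named genes in IgG RIP turned negative, among them Kcna1 at -0.0084, Kcnd2 at -0.17 and Kcnma1 at -0.22. The cause of these shifts was not tested. Of the named genes called in IgG RIP, 14 of 38 kept their call in every refit (other scaling, count filter or tool, 1 fit of all libraries, the replicate block, 1 library left out), and of the 10 called in CaMKIIβ RIP, 0 did; the 2-fold minimum is not a refit and is not counted here. Removing the exon length trend gives values with no test, so no call was made under it. None of the called named genes changed sign with it, and the median over Kcn genes was 0.06 in CaMKIIβ RIP and 0.17 in IgG RIP, against 0.09 and 0.22 before. Each Input group has 2 libraries, and refits with 1 assume that it varies like the others.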
